A study of Mus musculus with 12 samples.

Results

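The genes described here encode the nuclear subunits of oxidative phosphorylation, the respiratory chain and ATP synthase of the mitochondrial inner membrane. They were chosen by name. A probe belonged to the set when its gene name on the array began with Nduf, Sdh, Uqcr, Cox4 to Cox8 or Atp5 and followed the usual pattern of a subunit name. This gave 84 genes on 127 of the 55681 probes that were not controls. Of the 84 genes, 82 had a kept probe and were measured, among 22765 genes tested in all. Cox7b2 and Cox8c, isoforms known from the testis, were not well above background on any array. By name the 82 genes comprised 36 of complex I (Nduf), 4 of complex II (Sdh), 8 of complex III (Uqcr), 17 of complex IV (Cox) and 17 of complex V (Atp5). The name rule also took in 3 genes that do not encode subunits of these complexes, Cox4nb (now Emc8, of an endoplasmic reticulum complex), Atp5s (now Dmac2l) and Atp5sl (now Dmac2). Ndufa4, counted here with complex I by its name, is now placed in complex IV, and Cox7a2l joins respiratory complexes into larger assemblies.

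RNA was from the aorta of male mice aged 11 to 14 weeks with the strain label 129S5/SvEvBrd, C57BL6 and SJL. All animals carried floxed Socs3 alleles. Socs3 encodes a feedback inhibitor of cytokine signalling. Mice labelled smSocs3-KO also carried a Cre transgene driven by the SM22 promoter, which is active in smooth muscle, and littermates without Cre were the wild type (WT) controls. Each genotype was sampled before challenge and after 3 days of BAPN at 150 mg/kg/day together with angiotensin II (AngII) at 1000 ng/kg/min from osmotic minipumps. BAPN blocks the crosslinking of collagen and elastin, and AngII raises blood pressure. There were 3 arrays in each of the 4 groups, and the RNA was from a 10 mm stretch of aorta above the branch to the right kidney. In a whole tissue, fewer cells of a type and less RNA per cell cannot be told apart.

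The targeted gene did not follow its label. The log2 value of Socs3, relative to the 75th percentile of its array, was 0.30, 0.32 and 0.75 in WT before challenge and 0.24, 1.14 and 1.46 in the smSocs3-KO arrays before challenge. The day 3 arrays gave 2.21, 2.30 and 0.64 (WT) and 3.31, 2.28 and 4.13 (smSocs3-KO). Whether the probe (mm9 chr11:117827480-117827539) lies in the deleted part is not known from the files. The genotype is therefore that of the labels throughout. Slide 1 held the 6 WT arrays together with replicate 1 of the unchallenged smSocs3-KO group, and slide 2 held the remaining 5 smSocs3-KO arrays, so that slide and genotype could be separated only through that 1 array. It was also the dimmest array (log2 75th percentile 7.48, against 7.97 to 8.79 on the others) and had the lowest correlations with arrays of its own group (0.971 and 0.972). The aorta's smooth muscle genes were clearly present, with the summed level of the 12 listed between 1797 and 3696 times the 75th percentile of an array.

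In oxidative phosphorylation, complex I and complex II take electrons from NADH and succinate, complex III passes them on to cytochrome c, and complex IV hands them to oxygen. Complexes I, III and IV pump protons, and complex V uses the gradient to make ATP. Complex II is the only one with no subunit encoded in mitochondrial DNA. The others are built from nuclear and mitochondrial products together. Several complex IV subunits exist as a general form and a form used in heart, skeletal muscle or brown fat, such as Cox6a1 and Cox6a2, Cox7a2 and Cox7a1, and Cox8a and Cox8b.

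Nuclear genes of these complexes share promoter elements bound by NRF1, ETS-family factors (GABP or NRF2), YY1 and the oestrogen-related receptors. Promoter windows in RefSeq (GRCm38.p6, 250 bases before to 50 after the start) were found for 68 of the 82 measured genes and were searched on both strands. The ETS core CCGGAAG was in a window of 16 of the 68 genes (23.5%, against 9.93% of all 27025 genes with a window). The YY1 element AAGATGGC was in 11 (16.2%, against 3.19%), the NRF1 core CGCATGCG in 9 (13.2%, against 2.07%) and the ERR element CAAGGTCA in 4 (5.88%, against 1.76%). The last letters of the ETS core and the first of the YY1 element, AAG, can overlap. A match is a description of the letters and not of binding. The 250 bases upstream of 4 genes that passed the test in the mean challenge response and hold a match there are shown together with those of Cox7a1 and Cox8b, the isoforms with the widest spread between arrays in complex IV after Cox6a2. Capitals mark the matches, and neither Cox7a1 nor Cox8b held any of the 4 motifs in its window. The same was true of Atp5g1, Atp5o, Cox5a, Cox5b, Ndufa4 and Ndufv2, which also passed that test. Atp5f1, Ndufb8 and Ndufs4 passed too and held a YY1 match in the window, but not wholly within these 250 bases.
Cox6b1 (minus strand, chr7:30626115-30626364): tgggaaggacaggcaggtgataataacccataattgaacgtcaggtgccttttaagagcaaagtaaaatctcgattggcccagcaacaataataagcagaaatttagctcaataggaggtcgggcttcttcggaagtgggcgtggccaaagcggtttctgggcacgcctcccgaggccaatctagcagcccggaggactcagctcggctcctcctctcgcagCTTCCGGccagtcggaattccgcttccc
Ndufb6 (minus strand, chr4:40279422-40279671): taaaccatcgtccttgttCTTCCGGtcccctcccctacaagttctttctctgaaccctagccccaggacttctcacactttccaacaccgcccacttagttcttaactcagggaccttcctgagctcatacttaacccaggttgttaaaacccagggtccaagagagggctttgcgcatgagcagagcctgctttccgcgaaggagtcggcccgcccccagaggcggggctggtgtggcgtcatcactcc
Sdhd (minus strand, chr9:50603850-50604099): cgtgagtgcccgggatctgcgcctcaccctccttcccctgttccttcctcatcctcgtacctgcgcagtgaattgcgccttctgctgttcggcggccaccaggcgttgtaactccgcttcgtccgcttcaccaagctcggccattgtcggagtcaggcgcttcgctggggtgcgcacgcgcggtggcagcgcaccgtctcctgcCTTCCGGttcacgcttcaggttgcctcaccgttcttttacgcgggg
Atp5g2 (minus strand, chr15:102671048-102671297): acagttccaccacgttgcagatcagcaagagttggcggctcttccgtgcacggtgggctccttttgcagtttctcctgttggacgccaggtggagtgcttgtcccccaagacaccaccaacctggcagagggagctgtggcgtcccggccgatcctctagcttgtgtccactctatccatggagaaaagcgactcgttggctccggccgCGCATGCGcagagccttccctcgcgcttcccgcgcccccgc
Cox7a1 (plus strand, chr7:30183921-30184170): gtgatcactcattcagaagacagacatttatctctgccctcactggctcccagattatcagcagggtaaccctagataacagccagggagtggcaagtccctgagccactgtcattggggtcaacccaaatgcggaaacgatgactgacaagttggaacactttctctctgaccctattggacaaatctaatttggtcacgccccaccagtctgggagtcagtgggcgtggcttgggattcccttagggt
Cox8b (minus strand, chr7:140900447-140900696): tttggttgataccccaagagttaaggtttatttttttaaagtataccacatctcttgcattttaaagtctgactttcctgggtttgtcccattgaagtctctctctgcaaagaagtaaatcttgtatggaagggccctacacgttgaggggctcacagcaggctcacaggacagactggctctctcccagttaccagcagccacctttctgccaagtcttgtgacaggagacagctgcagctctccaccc

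Before challenge and at day 3 the WT arrays were compared first, to ask how the nuclear subunit genes stood after 3 days of BAPN + AngII. Of the 82 genes, 77 had a higher mean at day 3 in WT (48.4% of all genes did), with a median log2 change of 0.36 beside -0.02 over all genes, but only 53 of 82 were higher, with a median of 0.11 beside -0.04, when the arrays were quantile normalized. With the array median in place of the 75th percentile all 82 were higher, with a median of 0.55, and the median of all genes then stood at 0.17. Relative to the median of all genes, the shift of the members was 0.38 with either percentile and 0.15 with quantile normalization. In 44 of the 82 genes (53.7%) every WT array at day 3 was above every WT array before challenge, and no gene was the other way round, whereas 20.7% and 14.6% of all genes were separated in these directions. At an unadjusted p under 0.05 in limma, 33 of the 82 (40.2%) were higher and none was lower, beside 15.9% and 10.7% of all genes.

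At an adjusted p under 0.05 over all genes in limma, 5 of the 82 genes (6.10%) rose in WT and none fell, where 3.58% of all genes rose and 1.09% fell. They were Atp5g1 and Atp5o of complex V, Cox5b of complex IV, and Ndufa4 and Ndufs4. None was called when the arrays were quantile normalized or in the authors' value table, 2 (Atp5g1 and Atp5o) were called with the array median, and 3 of them (Atp5g1, Atp5o and Ndufa4) together with Cox5a after normexp and quantile normalization. The number called also turned on single arrays. It was 0 without WT before challenge replicate 1, 2 or 3, without WT day 3 replicate 1 or 3, and without smSocs3-KO before challenge replicate 4. It was 2 without smSocs3-KO day 3 replicate 2 or 3 and 3 without its replicate 5. It was 10 without WT day 3 replicate 4, 8 without smSocs3-KO before challenge replicate 3 and 14 without replicate 1 of that group, the dim array. The share of all genes called under these other settings is not given here, so these counts have no background to be read against.

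Atp5g1 encodes the ring subunit c of the ATP synthase. Its log2 value was 5.43, 5.53 and 5.75 in WT before challenge and 6.63, 6.35 and 6.26 at day 3. The WT groups did not overlap, and the change was 0.84 ± 0.16 (SE, n = 3 per group), a 1.79-fold rise (limma adjusted p = 0.0329). In the smSocs3-KO arrays it was 5.85, 5.95 and 5.85 before challenge and 6.18, 5.90 and 6.16 at day 3, between the WT groups. A second probe of Atp5g1 differed from the brighter one used here, with a WT change of -0.22, so that the call belongs to 1 of its 2 probes, and it was lost when the probes of a gene were averaged.

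Atp5o encodes the stalk subunit that ties the catalytic head of the ATP synthase to its membrane part. It measured 3.56, 3.60 and 3.63 in WT before challenge and 4.42, 4.22 and 4.14 at day 3, a change of 0.66 ± 0.14 (limma adjusted p = 0.0360). The smSocs3-KO arrays measured 3.68, 3.83 and 3.67 before challenge and 4.02, 3.76 and 3.99 at day 3, where 1 array of day 3 lay among those before challenge.

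Cox5b encodes a subunit of complex IV found in all tissues. Its WT values were 5.0, 4.89 and 5.08 before challenge and 5.67, 5.56 and 5.58 at day 3, a change of 0.61 ± 0.14 (limma adjusted p = 0.0397). In the smSocs3-KO arrays they were 5.08, 5.31 and 5.04 before challenge and 5.47, 5.43 and 5.64 at day 3. The groups of each genotype were separated. The probe used has an mm9 position on chromosome 15 while the gene lies on chromosome 1, so that a near-identical copy may share its signal, and it was the only one of the 82 probes used with a position on another chromosome. The other Cox5b probe, on the gene's own chromosome, differed by 0.64 in WT and 0.32 in smSocs3-KO.

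Ndufa4 measured 4.26, 4.18 and 4.60 in WT before challenge and 5.17, 4.90 and 5.06 at day 3, a change of 0.70 ± 0.16 (limma adjusted p = 0.0421). Ndufs4, an accessory subunit of complex I near its NADH-oxidizing arm, measured 3.17, 3.22 and 3.34 before and 3.99, 3.83 and 3.8 at day 3, a change of 0.63 ± 0.15 (limma adjusted p = 0.0424). For neither gene did the WT groups overlap. In the smSocs3-KO arrays Ndufa4 went from 4.44, 4.79 and 4.61 to 4.72, 4.74 and 4.83, and Ndufs4 from 3.25, 3.62 and 3.49 to 3.71, 3.47 and 3.64. These groups overlapped in both genes.

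**Figure D1:**
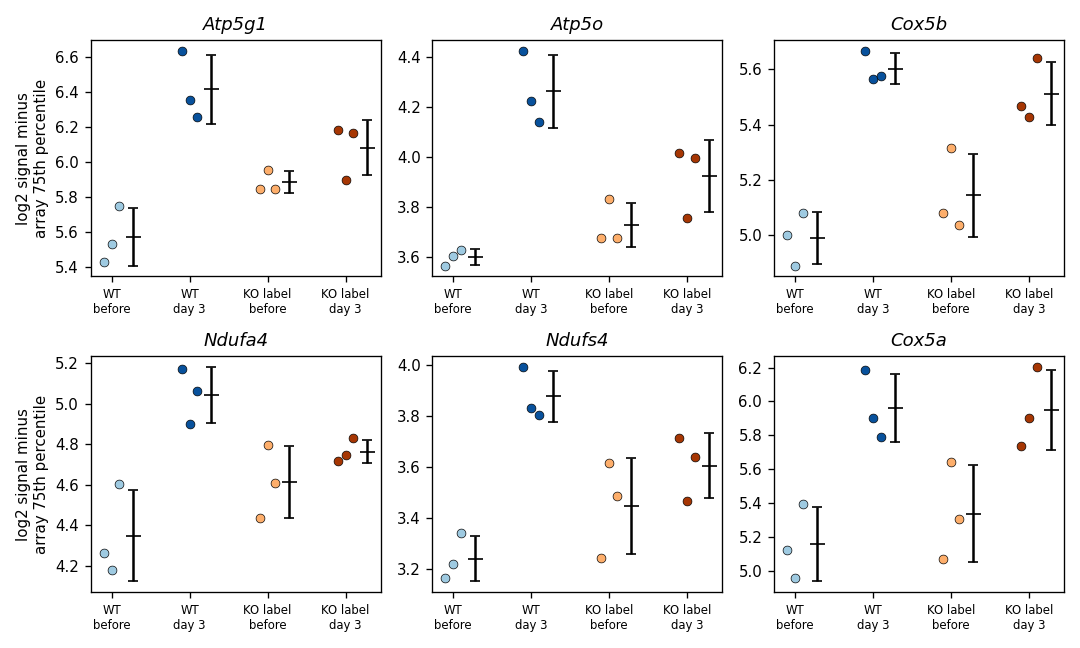
Log2 signal minus the 75th percentile of the array for the 5 genes that passed the test in WT and for Cox5a, by group (3 arrays each, points); the horizontal mark and bar are the mean and SD. In all 6 genes the WT arrays at day 3 lie above those before challenge, and the smSocs3-KO arrays of Cox5a and Cox5b are separated in the same direction, in values scaled by the 75th percentile (no member passed in WT after quantile normalization).

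Under the smSocs3-KO label, 50 of the 82 genes stood higher at day 3 (44.6% of all genes did) and 32 lower, with a median log2 change of 0.05 beside -0.06 over all genes, and the sign turned to -0.04 (37 higher) after quantile normalization. Without the dim array, smSocs3-KO before challenge replicate 1, the median was 0.01 with 43 of 82 higher, which is also the value within slide 2. No member was called at an adjusted p under 0.05 in limma, where 1.71% of all genes rose and 0.734% fell. At an unadjusted p under 0.05, 3 members (3.66%) were higher (Cox5a, Cox5b and Ndufb8) and 1 was lower (Ndufb10, a complex I membrane-arm subunit, by -0.40), beside 12.8% and 11% of all genes. Groups were separated upwards in 2 members (Cox5a and Cox5b) and downwards in 3 (Ndufb10, Ndufc1 and Ndufv3), beside 14.1% and 14% of all genes.

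**Figure D2:**
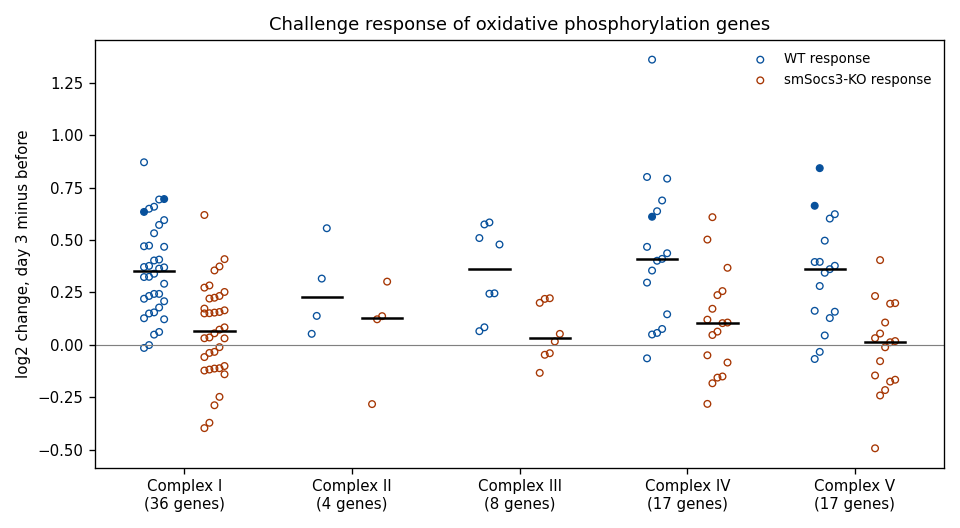
Log2 change from before challenge to day 3 of the 82 genes by complex, in WT (blue) and in the arrays labelled smSocs3-KO (orange), scaled by the 75th percentile; filled points passed limma at an adjusted p under 0.05 and black bars are medians. The WT medians lie between 0.23 and 0.41 and the smSocs3-KO medians between 0.01 and 0.13, and after quantile normalization the WT median of complex II falls to -0.02 and the smSocs3-KO medians of complexes I, III and V fall below 0.

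Averaged over both genotypes, 67 of the 82 genes were higher at day 3 (46.1% of all genes were), with a median of 0.19 (0.40 with the array median and 0.03 with quantile normalization). Of these, 26 passed an unadjusted p of 0.05 and none was lower at it, beside 20.7% higher and 18.4% lower of all genes, whereas with quantile normalization 13 were higher and 8 lower at this p and with normexp 14 and 10. In all, 15 of the 82 members (18.3%) rose and none fell at an adjusted p under 0.05 in limma, beside 13.6% and 9.18% of all genes. They comprised Ndufa4, Ndufb6, Ndufb8, Ndufs1, Ndufs4 and Ndufv2 of complex I, Sdhd of complex II, Uqcrq of complex III, Cox5a, Cox5b and Cox6b1 of complex IV, and Atp5f1, Atp5g1, Atp5g2 and Atp5o of complex V. After quantile normalization 6 members were called, of which 5 rose (Atp5g1, Cox5a, Cox5b, Ndufb6 and Ndufb8) and Ndufb10 fell. With normexp 10 were called, of which 6 rose and 4 fell (Atp5a1, Ndufb10, Ndufc1 and Uqcr11). The count was 9 without smSocs3-KO day 3 replicate 2, 8 without its replicate 3, 5 without its replicate 5, 7 without smSocs3-KO before challenge replicate 4, and 5 without WT day 3 replicate 1 or WT before challenge replicate 1 or 2. Atp5g1, Atp5o, Cox5a, Cox5b and Ndufb8 were called after leaving out any 1 of the 12 arrays. The count without the dim array was 10. The share of all genes called under these other settings is not given here either.

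Cox5a, a complex IV subunit found in all tissues, had a mean challenge response of 0.71 ± 0.15 (limma adjusted p = 0.0105), the most of any subunit of its complex that passed. It measured 5.12, 4.96 and 5.4 in WT before challenge and 6.19, 5.90 and 5.79 at day 3. In the smSocs3-KO arrays it measured 5.07, 5.64 and 5.31 before and 5.74, 5.90 and 6.20 at day 3. Each day 3 array was above each array before challenge of its own genotype.

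Ndufb8, an accessory subunit of the complex I membrane arm, rose by 0.55 ± 0.13 (limma adjusted p = 0.0157). Its values were 4.84, 4.73 and 5.10 in WT before challenge, 5.72, 5.45 and 5.59 in WT at day 3, 4.80, 5.41 and 5.12 in smSocs3-KO before challenge and 5.4, 5.53 and 5.63 in smSocs3-KO at day 3. Its smSocs3-KO groups overlapped by 1 array on each side. Ndufb6, of the same arm, had the largest log2 change of complex I in either genotype on the probe used. It was 0.87 ± 0.30 in WT (limma adjusted p = 0.103) and 0.62 ± 0.30 in smSocs3-KO (adjusted p = 0.235). Its other kept probe differed by 0.56 and 0.26, below Ndufb8 at 0.69 and 0.41. On the probe used Ndufb6 also had the widest spread of the complex. It measured 2.69, 3.99 and 3.60 in smSocs3-KO before challenge, where the low value is that of the dim array.

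Complex I had 34 of 36 genes higher at day 3 in WT, with a median of 0.35 (22 of 36 and 0.10 after quantile normalization). Among the catalytic core subunits, Ndufs1, Ndufs3, Ndufs7, Ndufs8, Ndufv1 and Ndufv2 differed by 0.57, 0.23, 0.12, 0.65, 0.18 and 0.47 in WT. Of these Ndufs1 and Ndufv2 rose in the mean challenge response. On the probes used, the lowest change of the complex in WT was that of Ndufv3, a small subunit of the NADH-oxidizing part, at -0.02. In smSocs3-KO it was that of Ndufb10 at -0.40. Ndufv3 had 3 kept probes, and those not used differed by -0.41 and -0.15 in WT. In smSocs3-KO they differed by -0.63 and -0.50, below Ndufb10.

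The 4 genes of complex II were all higher in WT, none past the test. Sdhd, a membrane anchor, went from 3.93, 3.9 and 4.2 to 4.77, 4.54 and 4.38 in WT, a change of 0.56 ± 0.18 (limma adjusted p = 0.0870), and rose in the mean challenge response by 0.43 ± 0.13 (adjusted p = 0.0354). Sdhb, the iron-sulphur subunit, differed by 0.32, Sdha, the flavoprotein that oxidizes succinate, by 0.14, and Sdhc, the other anchor, by 0.05 in WT. In smSocs3-KO these 4 differed by 0.30, 0.14, 0.12 and -0.28 in the same order. After quantile normalization the median of the 4 was -0.02 in WT.

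Complex III had all 8 genes higher in WT with a median of 0.36, and 4 of 8 with a median of 0.12 after quantile normalization. Uqcrq, a small subunit next to cytochrome b, had the largest change and rose in the mean challenge response by 0.40 ± 0.12 (limma adjusted p = 0.0321). It measured 5.90, 5.80 and 5.99 in WT before challenge and 6.65, 6.52 and 6.27 at day 3. Uqcr11 had the lowest change of the complex, 0.06 in WT and -0.13 in smSocs3-KO.

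Complex V had 15 of 17 genes higher in WT with a median of 0.36 (11 of 17 and 0.07 after quantile normalization), and 9 of 17 with a median of 0.01 in smSocs3-KO. Of the 3 genes for the same ring subunit c, Atp5g1 differed by 0.84 ± 0.16, Atp5g2 by 0.60 ± 0.18 and Atp5g3 by 0.38 ± 0.23 in WT, where the difference between them was not tested, and Atp5g1 and Atp5g2 rose in the mean challenge response. Atp5f1, the stator subunit b, rose by 0.51 ± 0.15 there (adjusted p = 0.0371). The catalytic subunits Atp5a1 and Atp5b differed by 0.04 and 0.40 in WT. The 2 genes at the low end, Atp5sl (-0.07 in WT) and Atp5s (-0.49 in smSocs3-KO), are those that encode no subunit of the enzyme.

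Among complex IV isoforms, the general forms varied little between arrays of a group while 3 tissue forms varied more than nearly all genes. Over the 82 members the median SD within groups was 0.17, beside 0.32 over all genes tested. It was 1.78 for Cox6a2, 1.51 for Cox8b and 1.02 for Cox7a1, which placed them at the 99.8th, 99.7th and 97.7th percentiles of all genes. No other member exceeded 0.39.

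Cox8b, the form of subunit 8 in heart, skeletal muscle and brown fat, measured 3.33, 1.96 and 1.08 in WT before challenge, -0.27, 4.06 and 2.39 in WT at day 3, 3.26, 1.36 and 0.19 in smSocs3-KO before challenge and 0.66, 2.37 and 1.53 in smSocs3-KO at day 3. All groups overlapped, and the WT change was -0.06 ± 1.07. Cox7a1, the matching form of subunit 7a, measured 2.21, 0.57 and 0.03, then 0.62, 3.07 and 1.5 in WT, and 2.30, 0.48 and 0.50, then 1.13, 1.60 and 0.69 in smSocs3-KO. It was high on the same 3 arrays as Cox8b: WT before challenge replicate 1, WT day 3 replicate 3 and smSocs3-KO before challenge replicate 1. The general forms Cox8a and Cox7a2 stayed within 6.89 to 7.30 and 4.46 to 5.10 over the 12 arrays.

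Cox6a2, the heart and skeletal muscle form of subunit 6a, measured 0.74, -2.78 and -3.91 in WT before challenge and 0.06, 0.54 and -2.47 at day 3. In smSocs3-KO it measured 0.37, -1.39 and -1.10 before and 0.65, -2.28 and 1.02 at day 3. Every group held both high and low arrays, and neither challenge response was called (1.36 ± 1.26 in WT and 0.50 ± 1.26 in smSocs3-KO). Cox6a1, the general form, stayed within 7.91 to 8.52.

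The brown fat marker Ucp1 moved with Cox8b and Cox7a1 over the arrays, and the heart muscle marker Myh6 with Cox6a2. Correlations of other markers of these tissues with the isoforms were not taken. Ucp1, the uncoupling protein of brown adipocytes, measured 2.44, -0.13 and -1.67 in WT before challenge, -2.93, 4.56 and 2.04 in WT at day 3, 2.38, -1.84 and -3.70 in smSocs3-KO before challenge and -0.82, 0.44 and -0.87 in smSocs3-KO at day 3. Across the 12 arrays Cox8b correlated with Ucp1 at Pearson's r = 0.954 and Spearman's rho = 0.944 (permutation test, p = 4e-05 and 6e-05, adjusted over 6 pairs 0.00012 and 0.00018). Without the 2 arrays farthest from the median of Ucp1, r was 0.928, and over the 7 arrays of slide 1 it was 0.974, while slide 2 held 5 arrays, too few for a value. With group means removed it was 0.979. For Cox7a1 and Ucp1, r was 0.903 and rho 0.867 (permutation test, p = 0.0002 and 0.0005, adjusted 0.0004 and 0.001), 0.871 without the 2 farthest arrays and 0.92 on slide 1.

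Cox6a2 followed Myh6, the heart form of myosin, which ranged from -3.12 to 4.34. Here r was 0.957 and rho 0.965 (permutation test, p = 4e-05 and 2e-05, adjusted 0.00012 and 0.00012), r was 0.986 without the 2 farthest arrays and 0.971 on slide 1. Over all 12 arrays the crossed pairs had r = 0.119 for Cox8b and Myh6, 0.411 for Cox7a1 and Myh6 and 0.242 for Cox6a2 and Ucp1 (permutation test, adjusted p = 0.718, 0.255 and 0.536). On slide 1 these were 0.438, 0.758 and 0.459. Cidea, another brown fat gene, lay between 0.65 and 4.23, and the cardiac actin Actc1 between -2.16 and 3.55. Adipoq and Plin1, of all adipocytes, lay between 0.22 and 3.55 and between -1.49 and 0.87.

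Of the brown adipocyte list 11 of 13 genes were measured, and their summed level ranged over 33.3 to 42.4 (unchallenged WT), 35.2 to 86.5 (WT, day 3), 34 to 46.4 (unchallenged smSocs3-KO) and 50.4 to 57.8 (smSocs3-KO, day 3). The median change of the list was -0.19 in WT and -0.43 in smSocs3-KO, with none called in either, and in the mean challenge response Dio2 rose by 1.33 while Prdm16, Ppargc1a and Gyk fell, each by 0.74. Elovl3 and Slc27a2 were not kept. The 14 measured genes of the general adipocyte list had medians of -0.07 in WT and 0.66 in smSocs3-KO with none called, and sums of 96.2 to 218.8 over the WT arrays and 138.4 to 477.4 over the smSocs3-KO arrays. Of the striated muscle list 22 of 28 were measured, with sums of 65.7 to 86.0, 62.7 to 98.8, 71.3 to 87.9 and 42.1 to 71.3 in the same order. Its median change was -0.07 in WT and -0.37 in smSocs3-KO. Relative to WT before challenge, the list's median by array was 0.29, -0.18 and -0.31 in that group, the order of Cox6a2 there. It was -0.09, -0.23 and 0.005 in WT at day 3, where Cox6a2 had the reverse order. In smSocs3-KO it was 0.66, 0.25 and 0.10 before challenge and 0.51, -0.63 and 0.003 at day 3. Tnnc2 fell by 1.23 in smSocs3-KO (limma adjusted p = 0.0436), and in the mean challenge response Tnni2 rose by 1.23 while Myh7 fell by 1.24, Tnnc2 by 0.75 and Atp2a1 by 0.66. The skeletal myosins Myh1, Myh2 and Myh4 were not kept and Ckm, the muscle creatine kinase, was well above background on 9 of 12 arrays with values from -5.93 to -2.71. Whether fat or heart tissue was sampled with some aortas was not tested.

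**Figure D3:**
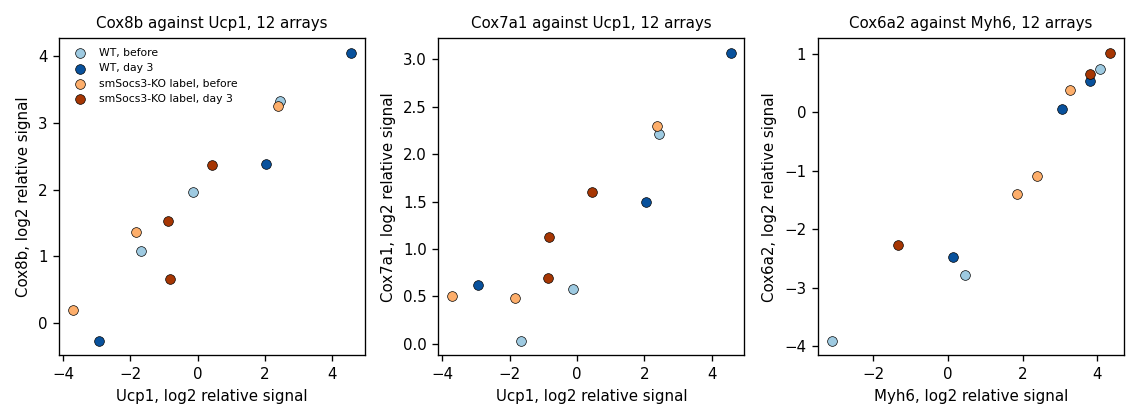
Log2 signal relative to the array's 75th percentile of Cox8b and Cox7a1 against Ucp1, and of Cox6a2 against Myh6; each point is 1 of 12 arrays, coloured by group. The points rise together in each panel (r = 0.954, 0.903 and 0.957). In the Ucp1 panels the smSocs3-KO arrays of day 3 lie close together on the Ucp1 axis, while those of the other groups are spread wider. In the Myh6 panel every group holds arrays with high and with low Cox6a2.

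Other members of complex IV were steadier. Cox4i2, the oxygen-responsive lung form of subunit 4, differed by 0.05 in WT and 0.10 in smSocs3-KO and Cox4i1, the general form, by 0.35 and 0.17. Cox6b1 rose in the mean challenge response by 0.46 ± 0.13 (limma adjusted p = 0.0295), with 2.23, 2.26 and 2.54 in WT before challenge and 3.21, 2.91 and 2.98 at day 3. Cox6b2, its testis form, stood below Cox6b1 on all arrays but was well above background on each. It measured -0.12, -0.08 and -0.27 in WT before challenge and 0.38, 0.63 and 0.44 at day 3 (limma adjusted p = 0.191). In smSocs3-KO at day 3, 1 array stood at -0.83 against 0.54 and 0.25. Cox7b differed by 0.44 and Cox7a2l by 0.08 in WT, neither past the test.

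The 13 subunits encoded in mitochondrial DNA had a WT median close to that of all genes. Their median log2 change in WT was -0.01 (6 of 13 higher), 0.18 with the array median and -0.12 with quantile normalization. In smSocs3-KO all 13 were lower, with a median of -0.30, and with the array median 4 of 13 were higher and the median was -0.09. Without the dim array, and likewise within slide 2, the smSocs3-KO median was -0.13. None of the 13 was called in limma in any of the 6 comparisons with either percentile, but in the mean challenge response all 13 were lower and 2 fell with quantile normalization, 2 with the authors' table and 5 with normexp. In smSocs3-KO at an unadjusted p under 0.05, 3 of 13 were lower. The difference between the median of the nuclear members and that of the mitochondrial genes, which a shift of the whole array leaves as it is, was 0.37 in WT and 0.35 in smSocs3-KO, and 0.22 and 0.26 after quantile normalization. Within slide 2 the smSocs3-KO value was 0.14.

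By array, the nuclear median minus the mitochondrial median, each relative to WT before challenge, was -0.19, -0.02 and 0.23 in WT before challenge and 0.56, -0.05 and 0.38 in WT at day 3. It was -0.31, 0.50 and 0.36 in smSocs3-KO before challenge and 0.41, 0.60 and 0.61 in smSocs3-KO at day 3. The WT groups overlapped through 1 array of day 3, replicate 3. The value of -0.31 in smSocs3-KO is that of the dim array.

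**Figure D4:**
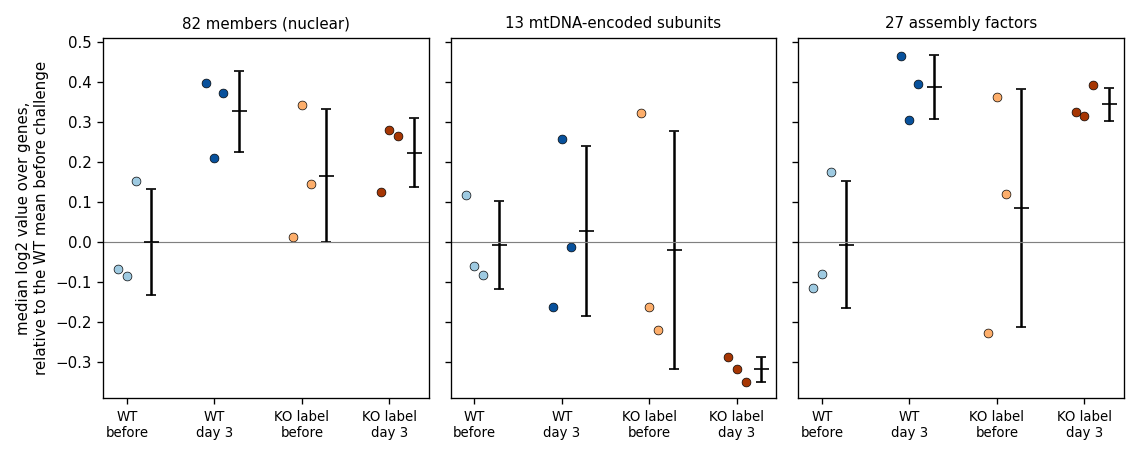
Median log2 value over genes on each array, relative to each gene's WT mean before challenge, for the 82 nuclear members, the 13 subunits encoded in mitochondrial DNA and 27 assembly factors; points are arrays and the bar is the mean and SD of 3. The nuclear WT medians at day 3 (0.21 to 0.40) lie above those before challenge (-0.08 to 0.15), while the mitochondrial medians of WT overlap, on the scale of the 75th percentile (quantile normalization brings the nuclear WT median change down to 0.11).

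The genotypes were compared at each time. Before challenge 80 of the 82 genes were higher in the smSocs3-KO arrays (50.6% of all genes were), with a median of 0.17 beside 0.00 over all genes. None was called, where 0.0264% of all genes were higher and none lower, and 1 member (1.22%, Ndufs6) was higher at an unadjusted p under 0.05 beside 1.89% of all genes, and none was lower beside 2.51%. The groups were separated in 13 members (15.9%), all higher in smSocs3-KO, beside 6.49% of all genes higher and 4.6% lower. Within slide 1, where the WT arrays are set against the dim array alone, the median was 0.01 with 45 of 82 higher, and without the dim array it was 0.25. At day 3, 71 of the 82 were lower in smSocs3-KO (59.5% of all genes were), with a median of -0.11 beside -0.08 over all genes, and the sign turned with the array median (0.05, with 50 of 82 higher). None was called, beside 0.154% of all genes lower and 0.958% higher, and at an unadjusted p under 0.05, 3 (Atp5k, Atp5o and Cox7a2) were lower and none higher, which is 3.66% beside 8.42% of all genes lower and 7.78% higher. The groups were separated in 11 members (13.4%), all lower, beside 12.7% of all genes lower and 7.87% higher.

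The difference between the challenge responses was tested as an interaction. It was negative, the smSocs3-KO response being below the WT response, in 80 of the 82 genes (56% of all genes), with a median of -0.29 beside -0.06 over all genes (-0.13 beside -0.01 and 70 of 82 negative after quantile normalization). No member was called, nor was any other gene, at an adjusted p under 0.05 in limma. At an unadjusted p under 0.05, 10 members (12.2%) were lower and none higher, beside 2.65% and 2.68% of all genes. They were Atp5g1, Atp5j2, Atp5k, Atp5o, Cox6b2, Cox7a2, Ndufa3, Ndufa4, Ndufs4 and Uqcrb, of which Atp5g1 had the smallest p (-0.64 ± 0.23, adjusted p = 0.896). The interaction uses all 12 arrays, of which the smSocs3-KO ones lie mostly on another slide, and slide and genotype are not balanced.

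**Figure D5:**
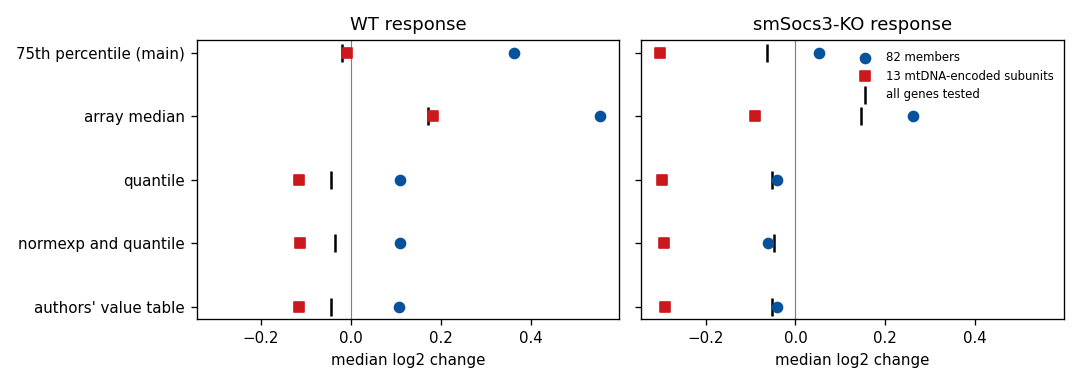
Median log2 change from before challenge to day 3 of the 82 nuclear members (circles), the 13 mitochondrial genes (squares) and all genes tested (bars) under 5 ways of scaling the arrays, for WT and for the arrays labelled smSocs3-KO. The members lie to the right of all genes in WT under each scaling (0.11 to 0.55), and in smSocs3-KO their sign is positive with either percentile and negative under the other 3.

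Genes that work with the complexes were followed in lists. Of all genes 48.4% were higher in WT, with a median of -0.02, and at an adjusted p under 0.05 in limma 3.58% rose and 1.09% fell. In smSocs3-KO 44.6% were higher, with a median of -0.06, and 1.71% rose and 0.734% fell. In the mean challenge response 46.1% were higher, and 13.6% rose and 9.18% fell. These shares are the background for all the lists that follow. The 9 nuclear genes for subunits, carriers and associated proteins whose names the rule leaves out were all higher in WT, with a median of 0.59. Of these, 2 rose at an adjusted p under 0.05 in limma: Ndufab1, the acyl carrier protein of complex I (1.60, adjusted p = 0.0334), and Cycs, cytochrome c (0.94, adjusted p = 0.0334). Of 27 measured assembly factors 26 were higher in WT, with a median of 0.35, and 2 rose, Cox19 (0.73, adjusted p = 0.0363), a copper-handling factor of complex IV, and Bcs1l (0.64, adjusted p = 0.0386), which completes complex III. Of 19 membrane transport genes 18 were higher, with a median of 0.40, and 1 rose, the ADP/ATP carrier Slc25a5 (1.08, adjusted p = 0.0492). In smSocs3-KO the medians of these 3 lists were 0.42, 0.24 and 0.33 with none called. With quantile normalization the WT medians were 0.32, 0.32 and 0.23, with 1 gene called in the first list and none in the others.

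Of 17 genes of the TCA cycle 13 were higher in WT, with a median of 0.38 and none called, and 4 rose in the mean challenge response, among them Idh3a (0.61, adjusted p = 0.0179) and Mdh2 (0.47, adjusted p = 0.0216). With quantile normalization the TCA median of the mean challenge response went from 0.20 to -0.002 with 1 called. Of 18 genes of fatty acid oxidation 15 were higher in WT, with a median of 0.29, and in the mean challenge response Slc25a20 and Cpt2 rose while Hadh fell by 0.55. Of 18 regulators of mitochondrial biogenesis 7 were higher in WT, with a median of -0.07. In the mean challenge response Ssbp1 and Esrra rose, and the coactivator Ppargc1a fell by 0.74 (adjusted p = 0.0295).

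Markers of other cells moved at the same time. Of 14 macrophage and leukocyte genes 13 were higher in WT and in smSocs3-KO, with medians of 1.03 and 1.43, and 3 were called in smSocs3-KO. All 11 measured proliferation genes were higher in each genotype, with medians of 3.48 and 2.21, and 10 were called in WT, led by Bub1 (4.96, adjusted p = 0.0279). The sum of their levels lay at 3.37 to 4.17 in unchallenged WT arrays and 11.5 to 79.3 after challenge, and for smSocs3-KO at 3.49 to 4.06 and 10.5 to 33.2. Of 12 smooth muscle genes 1 was higher in WT and none in smSocs3-KO, with medians of -0.28 and -0.56, and Myh11 fell by 1.09 in the mean challenge response. The endothelial and erythroid medians in WT were 0.21 and 0.99, with none called in WT. WT day 3 replicate 4 stood apart in these lists. Its median relative to WT before challenge was 0.14 for the macrophage genes (1.71 and 1.21 on the other WT arrays of day 3), 1.66 for the proliferation genes (4.38 and 4.41) and 0.22 for the smooth muscle genes (-0.56 and -0.68). The members' median on that array was 0.37, between the 0.40 and 0.21 of the others. Without it, 11 of the 14 macrophage genes rose and 5 of the 12 smooth muscle genes fell in WT at an adjusted p under 0.05 in limma, and the members' median was 0.35. The share of all genes called without that array is not given here, so these counts have no background to be read against. The part of these cells in the members' changes was not tested.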

How the data were processed

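One-colour Agilent arrays (aorta, 12 samples, 4 groups of 3) were grouped by their labels. The authors deposited the scanner output, whose processed signal is a linear intensity, and a quantile normalized value table, used as an alternative. Feature Extraction is version 10.7.1.1 per the file headers and 9.5.1.1 per the submitters' processing notes. Log2 of the processed signal minus the array's 75th percentile was used. Control and outlier-marked spots were left out, and spots of a probe were averaged. A probe was kept where every array of some group had it well above background (32287 of 55681), and the brightest kept probe stood for a gene. No spot was saturated. With limma 3.58.1 (R 4.3.3) 4 group means were estimated, and Benjamini-Hochberg adjusted p-values were taken over 22765 genes. The p-values measure the spread between these arrays, whose number limits the precision, and no label says whether replicates are separate animals. Permutation tests were two-sided, with 100000 resamples (scipy 1.17.1).

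In simulated data with 200 genes changed, the fit recovered 164 in the WT challenge response and 118 in the interaction. False calls numbered 6 and 3. The planted changes were larger than those of the members, and no slide difference was simulated. How well changes of the members' size are recovered was therefore not tested. The members and gene lists were chosen with earlier results of these data known. Genes named were by rule the members called in any comparison (the 10 of smallest p in each, and the other 5 of the mean challenge response added after their values were seen), the complex IV isoforms, Atp5g1 to Atp5g3 and Sdha to Sdhd, the largest and lowest changes of complexes I, III and V, and called list genes with 7 fixed markers. Other members named were chosen after their values were seen. Of the 82 measured members all matched a RefSeq gene (GRCm38.p6). Probe positions are mm9. Another 13 settings and the omission of each array were tried.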

Additional observations from a re-analysis of the deposited data

Results flagged for a closer look

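Cox8a, the general form of complex IV subunit 8, was noted because every WT array at day 3 lay above the WT mean before challenge (6.89, 6.91 and 7.0 before, 7.30, 7.11 and 7.27 at day 3) and every smSocs3-KO array at day 3 lay below the smSocs3-KO mean before challenge (7.04, 7.21 and 7.04 before, 7.06, 7.03 and 7.05 at day 3). Its interaction was -0.35 (limma adjusted p = 0.964), which did not pass the test. The smSocs3-KO values at day 3 stayed within the range of those before challenge but for 1 array. The same opposition was seen in 7 of the 82 members in all, Atp5j2, Atp5k, Cox8a, Ndufa13, Ndufa2, Ndufs5 and Ndufs6. Their adjusted p in limma for the interaction ran from 0.914 to 0.978. The share of all genes with this opposition is not given here, so the count has no background to be read against.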

How the results depend on the processing

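The members' median log2 change in WT kept its sign under every setting tried, at 0.55 with the array median and 0.11 with quantile normalization, with normexp and with the authors' table, and leaving out 1 array gave 0.32 to 0.40. The median of the mean challenge response was 0.40 with the array median, 0.0373 with normexp, 0.0299 with quantile normalization and 0.0297 with the authors' table (leave-one-out 0.17 to 0.24). That of smSocs3-KO was 0.26 with the array median (leave-one-out 0.01 to 0.14). The interaction was -0.15 with normexp, -0.13 with quantile normalization and -0.13 with the authors' table (leave-one-out -0.39 to -0.18). The genotype difference at day 3 was 0.0502 with the array median and -0.36 with the slide as a block (leave-one-out -0.17 to -0.06), and that before challenge was 0.32 with the array median and 0.0129 with the slide as a block or within slide 1 (leave-one-out 0.08 to 0.25). Of the members called in WT there were 2 with the array median, 14 with limma-trend, 14 with the slide as a block, 9 among probes well above background on all 12 arrays, and 0 without a filter, with only the groups compared, with quantile normalization, with the authors' table and within slide 1, and 0 to 14 when 1 array was left out. In the mean challenge response 5 were called without a filter, 6 with quantile normalization, 6 with the authors' table, 10 with normexp (4 of them lower) and 22 with limma-trend, and 5 to 21 when 1 array was left out. Shares of all genes called are given for the main setting only. Counts of members or list genes called under the others have no background to be read against. With the slide as a block, the challenge responses and the members called in them were the same as without the dim array. Slide 1 held no other smSocs3-KO array, so this match is fixed by the design. Why the settings differ was not tested.

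Same-numbered arrays deviated from their group means with correlations of -0.403 to 0.463, so the numbers were not taken to pair the samples. With the replicate number as a block, 0 members were called in WT and 0 in the mean challenge response, and the median in WT was 0.31. Of the named genes' values, none changed direction past the test under any setting.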
